A study of Homo sapiens with 4 samples.

Results

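The transcripts of TMEM255A, IL7R, ZDHHC20, OCRL, C1QBP, PHB2, PPP1R9A, PNMA2 and KRCC1 were all lower with ZIC5 siRNA than with control siRNA in 2 human melanoma cell lines. These 9 genes, of 19775 that the array's probe sets name singly, were selected on that same fall, so the differences between the siRNAs are given for them as a description with no test. All 19 probe sets that name them were read. The groups were A375 cells with ZIC5 siRNA, A375 cells with control siRNA, SK-MEL-28 cells with ZIC5 siRNA and SK-MEL-28 cells with control siRNA, each a single array of total RNA taken 48 h after transfection. A375 and SK-MEL-28 are established melanoma lines, and both carry an activating BRAF mutation. ZIC5 is a zinc-finger transcription factor, and the controls had received a negative control siRNA. The number of different ZIC5 siRNAs and their sequences are not given in the sources used here, so a match between an siRNA and the transcripts of these genes was not tested.

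An siRNA is a short RNA duplex that leads the Argonaute protein to a matching mRNA, which is then cut. Fewer copies of the mRNA of a transcription factor can in turn alter the genes it controls, and an siRNA can also lower transcripts that it matches only in part. The 9 genes belong to no single pathway. They encode an orphan membrane protein (TMEM255A), a cytokine receptor chain (IL7R), enzymes that act on membrane proteins and membrane lipids (ZDHHC20 and OCRL), mitochondrial scaffolds (C1QBP and PHB2), proteins best known from neurons (PPP1R9A and PNMA2) and a little-studied coiled-coil protein (KRCC1).

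Values are RMA intensities, and a difference is log2 intensity with ZIC5 siRNA minus log2 intensity with control siRNA in the same line. A fall names a lower intensity with ZIC5 siRNA and, with 1 array per group, carries no test. Each gene is represented by its probe set with the highest mean, and the 13794 genes whose log2 intensity averaged 5 or more, an intensity of 32, were analysed. The median intensity lay between 38.4 and 39.4 on all 4 arrays. The ZIC5 probe set itself gave intensities of 14.1 with ZIC5 siRNA and 16.8 with control siRNA in A375 cells, and 15.5 with ZIC5 siRNA and 21.4 with control siRNA in SK-MEL-28. These lie under the level minimum, so the knockdown could not be read from the arrays. Of 8 melanocyte lineage markers, all 8 reached an intensity of 32 on both SK-MEL-28 arrays, 5 did on the A375 array with ZIC5 siRNA and 6 on the A375 array with control siRNA. MLANA and TYRP1 were under 32 on both A375 arrays. The lineage markers summed to 45500 and 47200 in the SK-MEL-28 cultures with ZIC5 and control siRNA, and to 2490 and 1780 in A375. Without SOX10, the highest in A375, the sums were 43600 and 45100 in SK-MEL-28 and 828 and 889 in A375. Fibroblast markers summed to 294 and 483 with ZIC5 and control siRNA in A375 cells and to 813 and 1180 in SK-MEL-28, lower with ZIC5 siRNA in both lines like the members. LUM made most of that gap, reading 14.9 and 162 in A375 cells and 498 and 875 in SK-MEL-28. Without LUM the fibroblast sums were 280 and 321 in A375 cells and 316 and 301 in SK-MEL-28, PDGFRA and COL3A1 stayed under 32 on all 4 arrays, and the part of these markers in the falls was not tested. With ZIC5 and control siRNA, keratinocyte markers summed to 3750 and 3430 in A375 cells and 1570 and 1660 in SK-MEL-28, and neuronal markers to 523 and 337 in A375 cells and 296 and 311 in SK-MEL-28. Without KRT10 the keratinocyte sums were 419 and 467 in A375 cells and 150 and 165 in SK-MEL-28. The neuronal gap in A375 came from SYT1, which read 283.5 and 82.17 there.

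With ZIC5 siRNA, 9 of 9 genes were at least 2-fold lower in both lines, a size that 1.15% of the genes analysed reached in both lines, 5.05% in A375 cells and 2.12% in SK-MEL-28. The median difference of the 9 genes was -1.93 in A375 cells and -2.09 in SK-MEL-28, beside -0.01 and 0.00 over all genes analysed. In 8 of the 9 genes both ZIC5 siRNA arrays lay below both control arrays, which was so for 14.0% of all genes. IL7R was the exception. These shares restate how the genes were chosen. After readings under 32 were raised to 32, 7 of the 9 were still at least 2-fold lower in both lines, and PNMA2 in A375 and PPP1R9A in SK-MEL-28 were not. In RNA from whole cultures, fewer cells carrying a transcript and less of it per cell cannot be told apart.

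**Figure D1:**
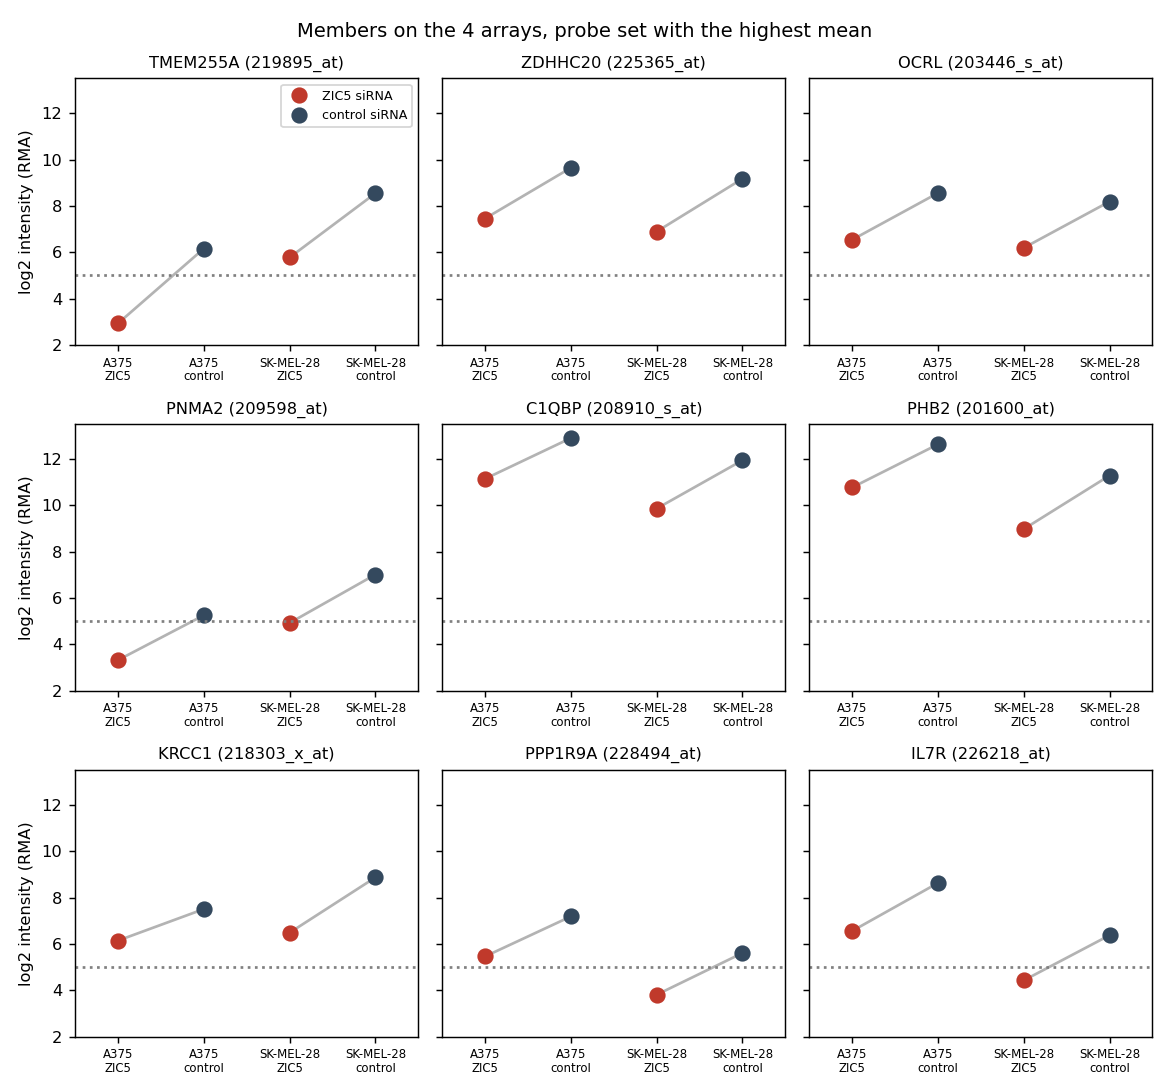
Log2 RMA intensity of each of the 9 genes (vertical axis) on the 4 arrays (horizontal axis), red for ZIC5 siRNA and dark for control siRNA, with the arrays of a line joined and the level minimum of 5 dotted. The red point lies under its dark partner in every panel and line, and TMEM255A, PNMA2, PPP1R9A and IL7R have arrays under the dotted line.

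TMEM255A is a multi-pass membrane protein of little-known function. Its single probe set read 7.63 with ZIC5 siRNA and 71.4 with control siRNA in A375 cells, and 54.8 with ZIC5 siRNA and 374 with control siRNA in SK-MEL-28. The differences were -3.23 in A375 cells and -2.77 in SK-MEL-28, or 9.36-fold and 6.83-fold lower. The A375 reading with ZIC5 siRNA was very low, and the fall was 2.23-fold once readings under 32 had been raised to 32, while SK-MEL-28 had no reading that low. The paralogue TMEM255B differed the other way, with intensities of 89.7 under ZIC5 siRNA and 43.0 under control siRNA in A375 cells, and 98.9 and 55.0 in SK-MEL-28. Its differences were 1.06 and 0.85.

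IL7R, the receptor chain through which lymphocytes sense IL7 and which also serves the TSLP receptor, was read by 2 probe sets. That with the higher mean, 226218_at, read 94.1 with ZIC5 siRNA and 395 with control siRNA in A375 cells, and 21.5 with ZIC5 siRNA and 82.8 with control siRNA in SK-MEL-28. Its level under ZIC5 siRNA in A375 was thus above that under control siRNA in SK-MEL-28, while the fall was nearly equal in both lines, 4.20-fold and 3.86-fold. In SK-MEL-28 the fall was 2.59-fold after readings under 32 were raised to 32. The other probe set, 205798_at, read 62.8 and 140 with ZIC5 and control siRNA in A375 cells and 34.5 and 52.5 in SK-MEL-28, which is 2.22-fold and 1.52-fold lower. Lymphoid markers gave little signal: of 6 measured, CD3D and CD3E alone reached 32 on any array, the highest reading was 59.8, and PTPRC, which encodes the pan-leukocyte protein CD45, read between 5.44 and 7.70. The summed lymphoid intensity was 167 and 156 on the ZIC5 siRNA arrays of A375 and SK-MEL-28 and 157 and 168 on their control arrays.

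ZDHHC20, an enzyme that attaches palmitate to cysteines of membrane-associated proteins, the EGF receptor among them, read 176 with ZIC5 siRNA and 801 with control siRNA in A375. In SK-MEL-28 it read 119 with ZIC5 siRNA and 578 with control siRNA. Both ZIC5 siRNA arrays lay below both controls, by 4.56-fold in A375 cells and 4.86-fold in SK-MEL-28, and every reading was above the level minimum. Its second probe set, 243786_at, had a mean under that minimum and read 32.1 and 46.9 with ZIC5 and control siRNA in A375, 1.46-fold lower, and 20.4 and 24.8 in SK-MEL-28, 1.22-fold lower.

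OCRL, the inositol 5-phosphatase lost in Lowe syndrome, removes a phosphate from a phosphoinositide of endosomes and the Golgi. Its probe set 203446_s_at read 93.0 with ZIC5 siRNA and 376 with control siRNA in A375 cells, and 73.0 with ZIC5 siRNA and 292 with control siRNA in SK-MEL-28. The falls of 4.05-fold and 4.0-fold were the most alike of the 9 genes, with differences 0.02 apart. The second probe set, 208316_s_at, was also at the level minimum and differed less. It read 57.8 and 92.7 with ZIC5 and control siRNA in A375, a 1.61-fold fall, and 51.3 and 103 in SK-MEL-28, a 2.0-fold fall.

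C1QBP and PHB2 are the mitochondrial members. C1QBP is a matrix protein needed for mitochondrial translation that was first found as a binder of complement C1q, and PHB2 forms ring-shaped scaffolds with PHB1 in the inner membrane and acts as a receptor in mitophagy. C1QBP probe set 208910_s_at read 2264 with ZIC5 siRNA and 7659 with control siRNA in A375 cells, and 930 with ZIC5 siRNA and 3944 with control siRNA in SK-MEL-28. The fall was 3.38-fold in A375 cells and 4.24-fold in SK-MEL-28. Its other probe set, 214214_s_at, gave nearly the same sizes: it read 1516 and 5054 with ZIC5 and control siRNA in A375, 3.33-fold lower, and 586 and 2607 in SK-MEL-28, 4.45-fold lower. PHB2, with a single probe set, read 1748 with ZIC5 siRNA and 6350 with control siRNA in A375 cells, and 504 with ZIC5 siRNA and 2499 with control siRNA in SK-MEL-28. Its fall was 3.63-fold in A375 cells and 4.96-fold in SK-MEL-28, and no array of either gene came near the bottom of the scale.

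The promoters of the members were read for letters of the kind that ZIC and GLI zinc fingers bind: CCTGCTG, then the related run CCCGCTG, and last the GLI-type run GACCACCCA, on both strands. RefSeq windows of GRCh38.p14, from 250 bases before to 50 after a gene's start, were at hand for 8 members, with 2 overlapping windows for PHB2. The motifs were present in 10.5%, 7.64% and 0.236% of the 35116 windows of that table, and at least 1 of them in 17.5%. Among the 8 members, C1QBP alone held any. CCTGCTG was on the reverse strand and began 205 bases before the start, CCCGCTG was on the forward strand and began 59 bases before it, and these did not overlap each other. The windows of C1QBP (chr17:5439106-5439405, minus strand), PHB2 (chr12:6970615-6970914, minus strand) and IL7R (chr5:35856641-35856940, plus strand) are shown 5′ to 3′, because C1QBP holds the matches, PHB2 is the other mitochondrial member without a match, and IL7R stands apart in base composition. Capitals mark the motif matches.
C1QBP: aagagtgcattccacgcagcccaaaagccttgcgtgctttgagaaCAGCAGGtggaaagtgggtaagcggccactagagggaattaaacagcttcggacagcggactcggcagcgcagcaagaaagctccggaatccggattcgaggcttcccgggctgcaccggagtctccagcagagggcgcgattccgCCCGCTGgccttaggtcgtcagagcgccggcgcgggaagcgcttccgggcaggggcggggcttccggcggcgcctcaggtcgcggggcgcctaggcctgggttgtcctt
PHB2: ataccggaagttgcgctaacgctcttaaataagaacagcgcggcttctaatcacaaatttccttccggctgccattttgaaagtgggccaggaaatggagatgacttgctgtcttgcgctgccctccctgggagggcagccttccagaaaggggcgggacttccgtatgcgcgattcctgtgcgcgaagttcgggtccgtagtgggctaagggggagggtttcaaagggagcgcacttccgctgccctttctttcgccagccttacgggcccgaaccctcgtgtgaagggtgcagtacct
IL7R: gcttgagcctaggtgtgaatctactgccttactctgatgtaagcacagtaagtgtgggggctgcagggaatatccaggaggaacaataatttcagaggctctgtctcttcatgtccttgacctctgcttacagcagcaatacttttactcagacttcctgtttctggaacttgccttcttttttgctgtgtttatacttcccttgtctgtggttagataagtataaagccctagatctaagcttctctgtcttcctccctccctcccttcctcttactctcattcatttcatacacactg

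The C1QBP window was 65.3% G and C with 30 CpG pairs and that of PHB2 57% with 21, whereas the IL7R window was 44.3% G and C with 0 CpG pairs. The median of all windows was 58.7% G and C and 14 CpG pairs. ZDHHC20 was at the other end, at 81.0% G and C with 40 CpG pairs, so the members do not share a promoter composition. A motif match is a description of the letters in this window and no sign of binding.

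PPP1R9A, or neurabin, is an actin-binding scaffold that brings protein phosphatase 1 to dendritic spines. Its probe set 228494_at read 44.0 with ZIC5 siRNA and 145 with control siRNA in A375 cells, and 14.0 with ZIC5 siRNA and 48.7 with control siRNA in SK-MEL-28. The falls were 3.30-fold and 3.48-fold, but in SK-MEL-28 the fall was 1.52-fold after readings under 32 were raised to 32. Its 3 other probe sets had means under the level minimum. Of these, 221088_s_at was 2.20-fold lower in A375 cells and 1.43-fold lower in SK-MEL-28, 233985_x_at 1.26-fold and 1.31-fold lower, and 231966_at, with readings between 6.83 and 12.5, differed by 0.37 in A375 cells and -0.05 in SK-MEL-28.

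PNMA2, a paraneoplastic Ma antigen of neurons whose gene derives from the Gag gene of a retrotransposon, was read by a pair of probe sets. Probe set 209598_at read 10.02 with ZIC5 siRNA and 38.3 with control siRNA in A375 cells, and 30.4 with ZIC5 siRNA and 129 with control siRNA in SK-MEL-28. The falls were 3.82-fold and 4.26-fold, and after readings under 32 were raised to 32 they were 1.20-fold in A375 cells and 4.04-fold in SK-MEL-28. The A375 size therefore rests on readings near the bottom of the scale. Its other probe set, 209597_s_at, stayed under 32 on all 4 arrays and was 1.23-fold lower in A375 cells and 1.34-fold lower in SK-MEL-28.

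KRCC1, a lysine-rich coiled-coil protein of little-known function, had the least equal falls of the 9 genes on the readings as given. With readings under 32 raised to 32, the falls of PNMA2, TMEM255A and PPP1R9A were less equal than those of KRCC1. Probe set 218303_x_at read 70.6 with ZIC5 siRNA and 181 with control siRNA in A375 cells, and 89.4 with ZIC5 siRNA and 467 with control siRNA in SK-MEL-28. The fall was 2.57-fold in A375 cells and 5.22-fold in SK-MEL-28, and the differences were 1.02 apart. Its 2 other probe sets leaned the same way. 233329_s_at read 49.0 and 117 with ZIC5 and control siRNA in A375 cells and 41.8 and 332 in SK-MEL-28, falls of 2.39-fold and 7.94-fold. 222585_x_at read 25.0 with ZIC5 siRNA and 57.7 with control siRNA in A375 cells and 38.5 and 134 in SK-MEL-28, falls of 2.31-fold and 3.48-fold. With readings under 32 raised to 32, its A375 fall was 1.80-fold. The ZIC5 siRNA arrays were close to each other, while the SK-MEL-28 control array read above the A375 control array on all 3 probe sets. With 1 array per group the difference between the lines was not tested, and 2 of the 3 KRCC1 probe sets are of the x_at kind, whose probes can also match other transcripts.

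Over the 19 probe sets, 18 were lower in both lines, as were 32.5% of the genes analysed. In 12 the intensity was at least 2-fold lower in both, beside 0.674% of the 41091 probe sets that name a single gene. The 12 include the representative probe set of all 9 genes, so these counts in part restate how the genes were chosen. Of the other probe sets, only those of C1QBP and KRCC1 reached 2-fold in both lines. With readings under 32 raised to 32, 9 of the 19 were 2-fold lower in both lines. Probe sets of a gene did not always give the same size. Of the 7 genes with more than 1 probe set, C1QBP and KRCC1 had every probe set at least 2-fold lower in both lines. For 222585_x_at of KRCC1 the A375 fall was 1.80-fold after readings under 32 were raised to 32. ZDHHC20, OCRL, PNMA2, PPP1R9A and IL7R had a second probe set with a smaller fall. All 5 probe sets under the level minimum differed less than the representative probe set of the same gene. Of these, 231966_at of PPP1R9A was higher with ZIC5 siRNA in A375, by 0.37. Over the 6635 genes with at least 2 probe sets at the level minimum, the median SD between the probe sets of a gene was 0.25 in A375 cells and 0.15 in SK-MEL-28.

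**Figure D2:**
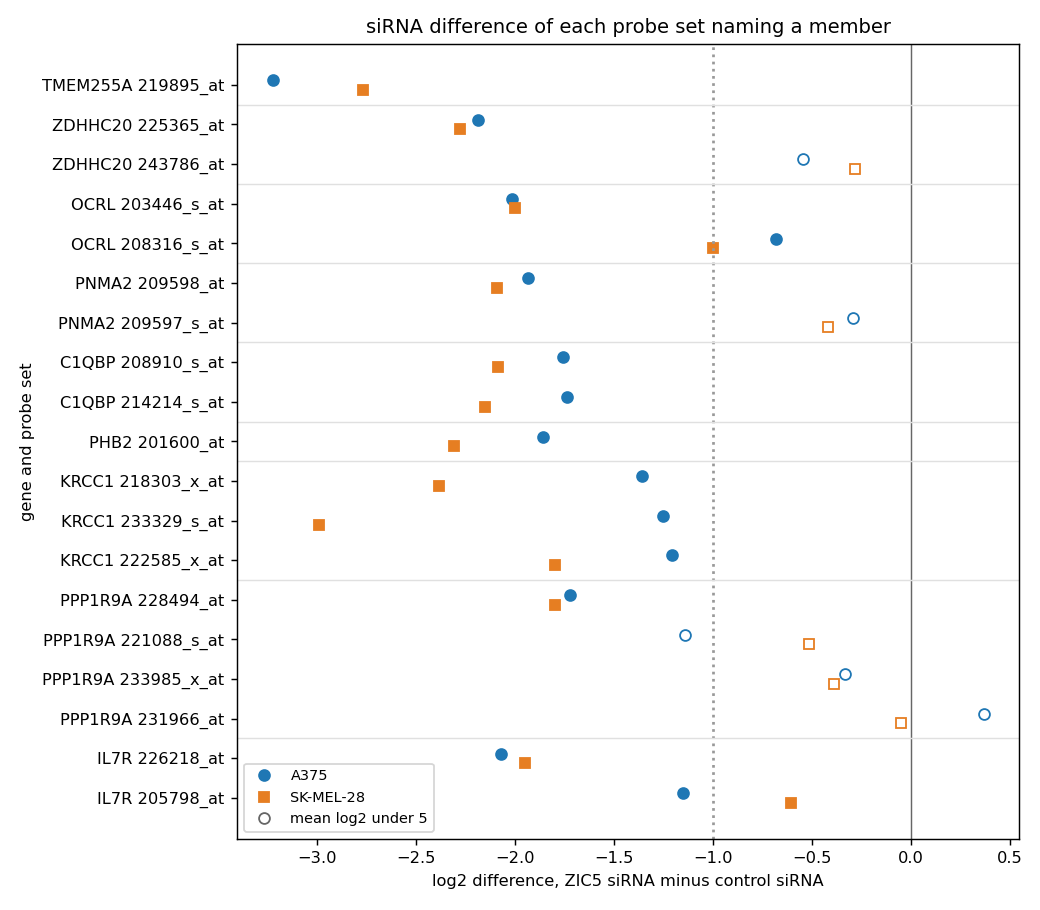
Log2 difference, ZIC5 siRNA minus control siRNA (horizontal axis), for each of the 19 probe sets (rows), circles for A375 and squares for SK-MEL-28, open where the mean log2 intensity was under 5. The open symbols lie to the right of the filled ones of the same gene, and 231966_at of PPP1R9A in A375 is the only point above 0, at 0.37.

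The falls were greater in SK-MEL-28 for 6 genes and greater in A375 for 3, TMEM255A, OCRL and IL7R. For 5 of the 9 genes the lines were less than 0.2 apart on the log2 scale. After readings under 32 were raised to 32, 2 genes were that close, ZDHHC20 and OCRL, the fall of TMEM255A was greater in SK-MEL-28, and that of PPP1R9A was greater in A375. TMEM255A ranked 1st among the 13794 genes by the smaller of the falls, ZDHHC20 3rd, OCRL 6th, IL7R 8th, PNMA2 9th, PHB2 11th, C1QBP 17th, PPP1R9A 19th and KRCC1 48th, so 39 other genes stood between or before them. Several of these ranks rest on readings under 32. With such readings raised to 32, ZDHHC20 ranked 1st, OCRL 3rd, PHB2 5th, C1QBP 11th, IL7R 34th, KRCC1 37th and TMEM255A 74th, while PPP1R9A ranked 406th and PNMA2 1412th. The 5 other genes with the lowest values of the smaller fall were ANKRD1, GSPT1, PTX3, SELENOF and EFEMP1. ANKRD1, PTX3 and EFEMP1 read 7.57, 11.5 and 14.3 with ZIC5 siRNA in SK-MEL-28, and their differences there were -0.25, -0.61 and -0.77 once readings under 32 had been raised, whereas GSPT1 and SELENOF had no reading under 32. The translation termination factor GSPT1 read 681 with ZIC5 siRNA and 3090 with control siRNA in A375 cells and 389 and 2336 in SK-MEL-28. The 5 genes whose pair of differences lay nearest to the median pair of the members, by Euclidean distance over the 2 lines, were SELENOF (distance 0.07), GPN2 (0.08), ELMOD2 (0.22), ZNF362 (0.26) and PTX3 (0.28). Of their probe sets at the level minimum, 1 of 2 for GPN2, 2 of 4 for ELMOD2 and 1 of 2 for ZNF362 were lower in both lines. SELENOF and PTX3 each had 1 probe set. SELENOF, a selenoprotein of the endoplasmic reticulum, read 327 and 1286 with ZIC5 and control siRNA in A375 cells and 582 and 2391 in SK-MEL-28.

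**Figure D3:**
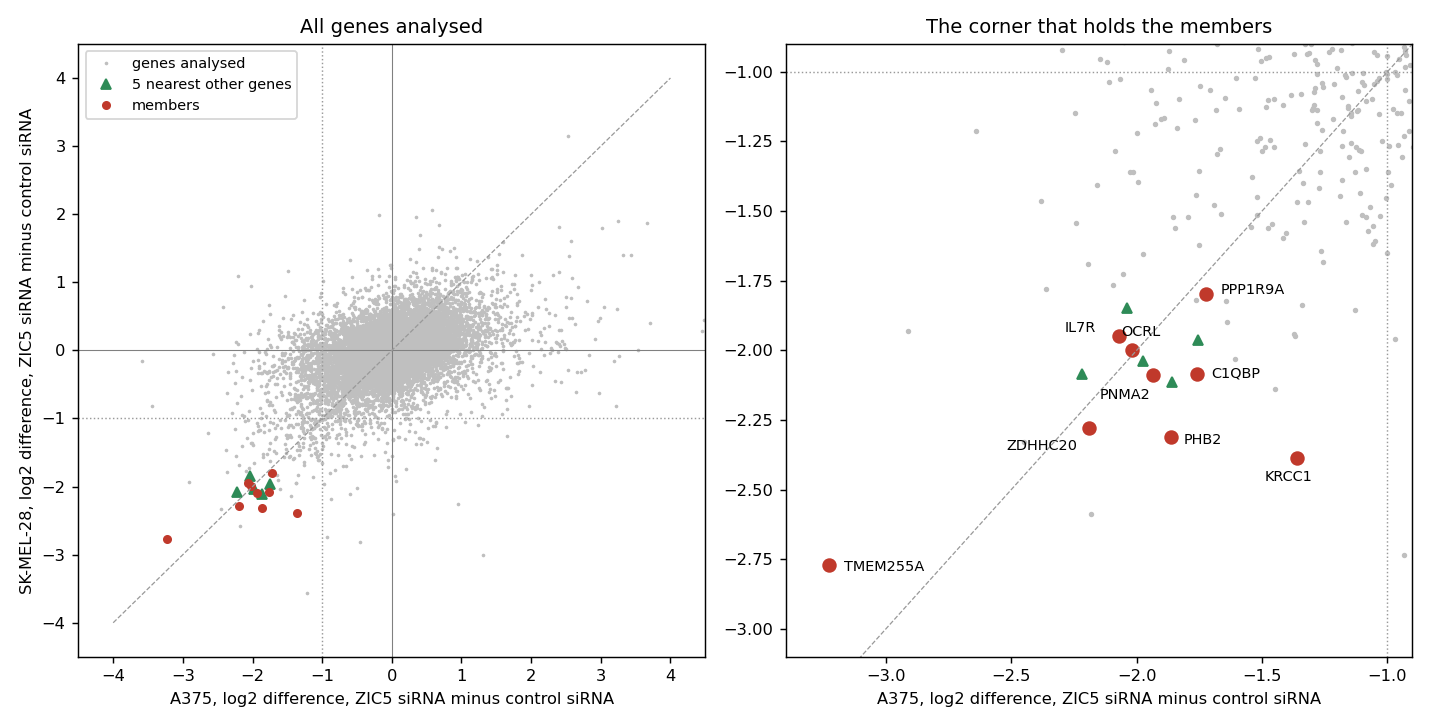
Log2 difference, ZIC5 siRNA minus control siRNA, in A375 (horizontal axis) and SK-MEL-28 (vertical axis) for all genes analysed on the left and for the corner of the members on the right, with members in red, the 5 nearest other genes as triangles, equal falls dashed and 2-fold falls dotted; 2 genes lie outside the left axes. The members other than TMEM255A and KRCC1 lie between -2.19 and -1.72 on the A375 axis and between -2.31 and -1.80 on the SK-MEL-28 axis.

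The level of the members in SK-MEL-28 against A375, taken over both siRNAs, is a comparison the choice did not use. Its error comes from the disagreement of the falls between lines, which the choice did touch. The limma adjusted p values given for members may therefore be too small. In an additive limma fit over all genes, 14.2% of genes were called lower in SK-MEL-28 and 13.4% higher, at a Benjamini-Hochberg adjusted p under 0.05. Of the 9 members, 6 averaged at least 5 on the log2 scale in both lines. Of these 6, 3 were called lower in SK-MEL-28, 0 higher, and 3 did not pass. The shares over all genes did not require an average of 5 in both lines, so they cover an unlike set. IL7R averaged a log2 intensity of 5.40 in SK-MEL-28 cells and 7.59 in A375, a difference of -2.19 (SE 0.17, limma adjusted p = 0.0066). The IL7R difference was -1.91 with values under 5 set to 5 (limma adjusted p = 0.0147). It was -1.67 with its probe sets averaged (limma adjusted p = 0.00636). PHB2 differed by -1.57 (SE 0.17, limma adjusted p = 0.0119) and C1QBP by -1.12 (SE 0.14, limma adjusted p = 0.0154). Each of these was lower in SK-MEL-28 than in A375 with either siRNA. KRCC1 (0.85, limma adjusted p = 0.126), ZDHHC20 (-0.52, limma adjusted p = 0.107) and OCRL (-0.36, limma adjusted p = 0.209) did not pass. For KRCC1 the gap between the lines was 0.34 on the ZIC5 siRNA arrays and 1.37 on the control arrays.

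The other 3 members averaged under 5 in 1 line and reached the level minimum only through the line where they were higher, so their line differences are given with no test. TMEM255A averaged 7.16 in SK-MEL-28 and 4.55 in A375, a difference of 2.62, which was 1.58 with values under 5 set to 5. PNMA2 differed by 1.68 and PPP1R9A by -1.61, or by 0.88 and -1.02 with low values set to 5. Among the 6 members at the minimum in both lines, the representative probe sets were farthest apart for IL7R on the control arrays, by 4.77-fold. On the ZIC5 siRNA arrays, with readings under 32 raised to 32, they were farthest apart for PHB2, by 3.47-fold. The other IL7R probe set, 205798_at, had a smaller gap on the control arrays, reading 140 in A375 and 52.5 in SK-MEL-28.

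**Figure D4:**
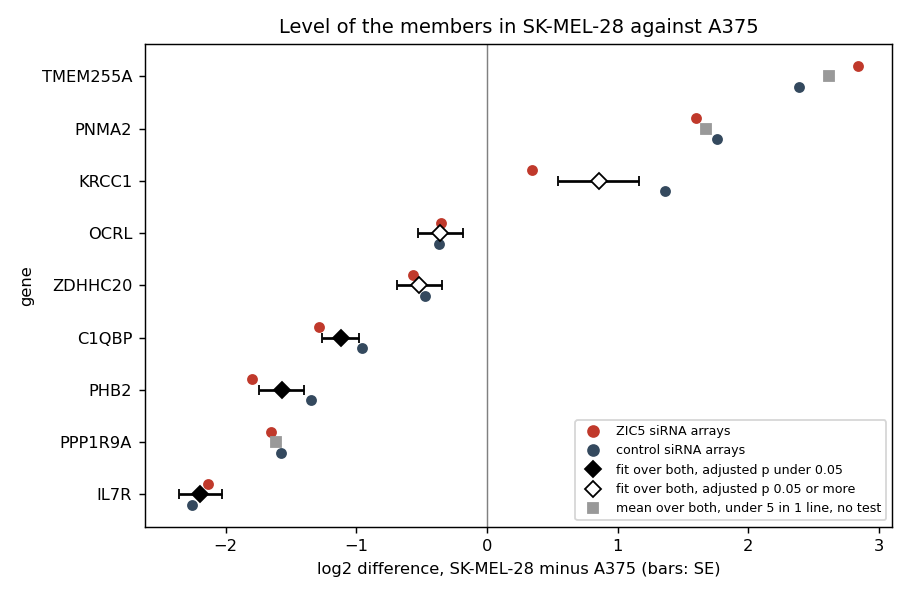
Log2 difference in level, SK-MEL-28 minus A375 (horizontal axis), for each member (rows), red for the ZIC5 siRNA arrays, dark for the control arrays and diamonds with SE bars for the limma fit over both, filled where the adjusted p was under 0.05; grey squares are means, with no test, of genes under 5 in 1 line. TMEM255A and PNMA2 lie to the right, IL7R, PPP1R9A, PHB2 and C1QBP to the left, and the red and dark points are farthest apart for KRCC1.

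The families and partners of the members were then read from lists of 125 other genes, of which 108 were at the level minimum. Of these, 0 were at least 2-fold lower in both lines and 0 at least 2-fold higher in both, beside 1.15% and 0.312% of all genes analysed. In the limma fit for the siRNA over both lines, 0 of the 108 passed, as did 0% of all 13794 genes, with a lowest adjusted p of 0.268. At an unadjusted limma p under 0.05 there were 14 of the 108 and 1824 of all genes. The median difference of the 108 genes was 0.09 in A375 cells and 0.04 in SK-MEL-28. By any amount, 29 of the 108 were lower in both lines and 44 higher in both. Of all genes analysed, 32.5% were lower in both lines, and the share higher in both is not given here. The counts of the separate lists below are to be read beside these.

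Among 27 other enzymes of palmitoylation and its removal, 11 were lower in both lines and 10 higher in both, with medians of -0.08 and 0.06. The lysosomal thioesterase PPT1 had the lowest mean, with differences of -1.06 and -0.66, and ZDHHC11 the highest, with 1.06 and 0.16. Among 21 inositol phosphatases, lipid kinases and OCRL partners the medians were 0.17 and 0.13. INPP5B, the closest relative of OCRL, read 187 and 118 with ZIC5 and control siRNA in A375 cells and 142 and 110 in SK-MEL-28 cells, so it differed by 0.66 and 0.36. INPP5A, which acts on soluble inositol phosphates, had the lowest mean of that list, at -0.87 in A375 cells and -2.19 in SK-MEL-28. SYNJ1, a synaptic phosphatase, had the highest, at 1.04 and 0.18.

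PHB1, the obligate partner of PHB2, read 1626 with ZIC5 siRNA and 1391 with control siRNA in A375 cells, and 1619 with ZIC5 siRNA and 1574 with control siRNA in SK-MEL-28. Its differences of 0.23 and 0.04 stood beside -1.86 and -2.31 for PHB2. Of 13 other prohibitin and inner-membrane quality control genes, 2 were lower in both lines and 7 higher in both. The protease subunit CLPX was at the top with 0.67 and 0.54, and STOML2, an inner-membrane relative of the prohibitins, at the bottom with -0.51 and -0.33. The list of C1QBP holds genes that maintain mitochondrial RNA and the mitochondrial genome, together with HABP2, a secreted protease that binds hyaluronan. Of its 12 genes at the level minimum, HABP2 included, 0 differed 2-fold in either line, and TWNK, the mitochondrial helicase, had the highest mean, with 0.61 and 0.26, and FASTKD2 the lowest, with -0.27 and -0.01. C1QA, C1QB and C1QC, which encode the chains of C1q, stayed under 32 on all 4 arrays.

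Of 8 other PNMA family genes, 3 were lower and 2 higher in both lines. PNMA1 differed by 0.71 and 0.45 and the apoptosis modulator MOAP1 by -0.46 and -0.48. Among 12 genes of the neurabin and protein phosphatase 1 list, PPP1R9B, or spinophilin, the paralogue of PPP1R9A, differed by 0.12 in A375 cells and -0.09 in SK-MEL-28. The inhibitor PPP1R2 differed by 0.95 and 1.07 and the catalytic subunit PPP1CC by -0.74 and -0.25. Among 14 genes of IL7 and TSLP receptor signalling, IL2RG, the common gamma chain that pairs with IL7R, read between 31.5 and 39.96, and the kinase JAK1 differed by -0.14 and -0.34. The survival factor MCL1 was highest, at 1.02 and 0.44, and STAT5A lowest, at -0.80 and -0.28.

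**Figure D5:**
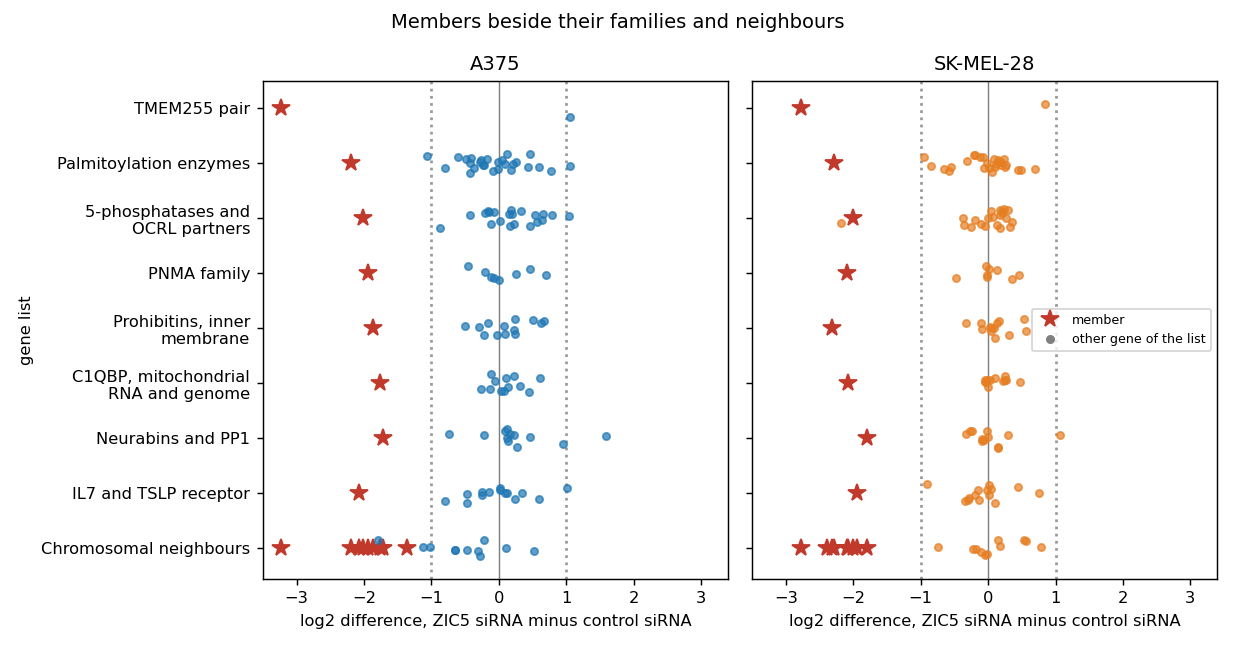
Log2 difference, ZIC5 siRNA minus control siRNA (horizontal axis), in A375 on the left and SK-MEL-28 on the right, for the other genes of each list at the level minimum (dots) and the member that the list belongs to (stars), with 2-fold differences dotted and a bottom row of chromosomal neighbours beside all 9 members. In the rows of gene lists each star lies to the left of all dots in both lines, except that INPP5A lies at -2.19 in SK-MEL-28, beyond OCRL; in the bottom row SMARCA1 lies among the stars in A375.

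The protein-coding neighbours on either side of each member on the chromosome were also read, in the gene order of the GRCh38.p14 RefSeq table. TMEM255A and OCRL lie on chromosome X, and the other members each on a chromosome of their own: ZDHHC20 on 13, C1QBP on 17, PHB2 on 12, PPP1R9A on 7, PNMA2 on 8, KRCC1 on 2 and IL7R on 5. Of 18 neighbours, 15 had a probe set of their own and 11 were at the level minimum. Of those 11, 0 were at least 2-fold lower in both lines, 3 were so in A375 cells and 0 in SK-MEL-28, beside 5.05% and 2.12% of all genes, and 5 were lower in both lines by any amount, as were 32.5% of all genes. Their median difference was -0.47 in A375 cells and -0.02 in SK-MEL-28. SMARCA1, a chromatin remodelling ATPase beside OCRL on chromosome X, read 183 with ZIC5 siRNA and 636 with control siRNA in A375 cells, and 254 with ZIC5 siRNA and 424 with control siRNA in SK-MEL-28, a 3.47-fold and a 1.67-fold fall. PEG10, beside PPP1R9A, was 2.19-fold lower in A375 cells and 1.47-fold higher in SK-MEL-28, and its A375 difference was -0.07 after readings under 32 were raised to 32. EMG1, beside PHB2, was 2.02-fold lower in A375 cells and 1.13-fold higher in SK-MEL-28, and RPAIN, beside C1QBP, differed by 0.51 and -0.02.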

How the data were processed

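Total RNA (100 ng) was labelled as biotinylated cRNA and hybridised to 1 array per group, per the labels' protocols. The authors deposited linear intensity values. Per the submitters' processing notes these came from RMA and Affymetrix Expression Console, whose versions are not given in the sources used here. Log2 was taken here. Probe sets were named from GEO's platform annotation, and 41037 of 41091 naming a single gene matched RefSeq (GRCh38.p14) by Entrez ID. Among 54613 probe sets, 1801 named several genes and 11721 none, and these were not used. No detection calls were used, and the number of arrays limits the precision. The labels do not say whether cultures were separate. With 1 array per group, a limma p-value measures no spread between cultures or arrays of a group. Its error is the disagreement of the siRNA differences between the lines, moderated by a prior taken over all genes.

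An additive model of siRNA and line was fitted over 13794 genes with limma 3.58.1 in R 4.3.3 (lmFit, eBayes with trend, 1 residual and 2.85 prior degrees of freedom), with Benjamini-Hochberg adjustment. On simulated data the fit was checked for the estimated size of the siRNA effect alone, and not for the line difference. An interaction could not be fitted. The members, lists and tests were chosen with earlier results of these data known. Named genes are the members, ZIC5, their closest paralogues and partners, and the complement chains, together with the highest and lowest mean difference of each list, the 5 nearest other genes, the 5 other genes with the lowest smaller fall, the chromosomal neighbours and the cell type markers; HABP2 was named after its values were seen. Alternatives changed the level filter, low values, normalization and the probe set of a gene.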

Additional observations from a re-analysis of the deposited data

Results flagged for a closer look

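Each of these named items had siRNA differences of opposite sign in the lines, with 1 array per group, and in each case the difference between the lines was not tested. PPP1R9A probe set 231966_at differed by 0.37 in A375 cells and -0.05 in SK-MEL-28, on readings under the level minimum. Among neighbours of the members, EMG1 differed by -1.02 in A375 cells and 0.18 in SK-MEL-28, PEG10 by -1.13 and 0.56, DPYSL2 by -0.31 and 0.53, RPAIN by 0.51 and -0.02, and SMYD1 by -0.22 and 0.15. The partner chain IL2RG differed by 0.10 in A375 cells and -0.30 in SK-MEL-28, and the paralogue PPP1R9B by 0.12 and -0.087.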

How the results depend on the processing

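No replicate block could be fitted because each group has 1 array. The limma fit has the cell line as a term, which sets each ZIC5 siRNA array beside the control array of its line. With 1 array per group, no array was left out. The 6 alternatives dropped the level filter, raised it to 7, lifted values under 5 to 5, added quantile normalization or a loess within each line, or averaged all probe sets of a gene. Changing only the level filter left the differences of the members kept as they were, and the members had been chosen for their falls. With that limit, all 96 member differences of the 6 alternatives were below 0. Against the typical SD between the probe sets of 1 gene (0.25 in A375, 0.15 in SK-MEL-28), 10 of them moved by more, 4 with low values lifted and 6 with probe sets averaged. With the filter at 7, 5 members were left, of which 5 were at least 2-fold lower in both lines and 2 were under an adjusted p of 0.05 for the line difference. The same filter left 6 member probe sets and 104 genes that were 2-fold lower in both lines, beside 12 and 159. With low values lifted 7 of the 9 members, and with probe sets averaged 7 of the 7 left, were at least 2-fold lower in both lines. Averaging put PNMA2 and PPP1R9A under the level minimum, so neither was counted there, and each has other probe sets with smaller falls. Under all 6 alternatives, 0 genes were called for the siRNA and 0 genes of the lists were 2-fold lower in both lines. With low values lifted, the 3 members called for the line difference stayed under 0.05. Their limma adjusted p values were 0.0147 for IL7R, 0.0108 for PHB2 and 0.0143 for C1QBP. TMEM255A, PNMA2 and PPP1R9A averaged under 5 in 1 line, so no test is given for them here either. Ranking the same genes with low values lifted was added after seeing the data. Averaging probe sets gave 87 genes at least 2-fold lower in both lines, and ZDHHC20 was then called for the line difference, at a limma adjusted p of 0.0379. The cause of these shifts was not tested, beyond the smaller number of genes that the stricter filter leaves. Readings under 32 limit the sizes given for TMEM255A, PNMA2, PPP1R9A and IL7R. The same holds for some other probe sets, 222585_x_at of KRCC1 in A375 among them.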
